A study of Mus musculus with 8 samples.

Results

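The 37 genes described here encode subunits and partners of Polycomb repressive complexes 1 and 2 (PRC1 and PRC2). They were chosen by name, with earlier results of these data known. All 37 were found among the 54838 genes of a count table from mouse oocytes, and all 37 were among the 15572 genes that passed the filter on low counts. RNA was sequenced from oocytes labelled C57BL/6, in libraries of 5-10 cells. The groups were BAF250aGKO oocytes at MII (arrested in metaphase of the second meiotic division), wildtype control oocytes at MII, BAF250aGKO oocytes at GV (the germinal vesicle stage, arrested in meiotic prophase) and wildtype control oocytes at GV, with 2 libraries in each of the 4 groups. BAF250aGKO stands for loss of BAF250a, encoded by Arid1a, which gives the SWI/SNF remodeller BAF one of its defining subunits, through Gdf9-cre, a recombinase driven by a promoter that is active in growing oocytes. The ages of the mice, the number of mice behind a library and whether the controls carried a floxed allele or the recombinase are not stated in the labels used here. Because the oocytes of a library were pooled, fewer cells with a transcript and less of it per cell cannot be told apart.

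PRC2 places methyl groups on lysine 27 of histone H3, and PRC1 attaches ubiquitin to histone H2A. Canonical PRC1 carries a CBX protein that binds the PRC2 mark, while variant PRC1 carries RYBP or YAF2 in its place, and the PR-DUB complex removes the ubiquitin again. In mouse oocytes both marks cover large silent domains, and a part of the H3 lysine 27 methylation is passed to the embryo, where it keeps some maternal alleles silent. Fully grown oocytes make almost no new RNA until after fertilisation, so levels between GV and MII are set by stored transcripts, their decay and their poly(A) tails.

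Depth lay between 19587421 and 33289150 reads in genes per library. The targeted gene Arid1a (ENSMUSG00000007880, mm10 chromosome 4, 133679008 to 133756769) was at 33 and 21.7 CPM (read counts scaled to library depth) in the knockout MII libraries, against 1617 and 1293 CPM in control MII. At GV it was at 4.87 and 12.9 CPM in knockout and at 379.6 and 458 CPM in control oocytes. Its difference, knockout over control, was -5.73 ± 0.50 on the log2 scale at MII and -5.55 ± 0.50 at GV (± SE, adjusted p = 0.000463 and 0.000526, edgeR's quasi-likelihood test). Summed oocyte markers lay between 22436 and 57544 CPM in every library. Of 25 blood and immune markers, 14 to 20 were at 0 reads in a library, with Ptprc, Lyz2 and Adgre1 at 0 in all 8, while others were detected and the list summed to 4.81 to 89.5 CPM. Mitochondrial genes held 3.03% to 6.93% of reads at MII and 0.105% to 0.446% at GV, and the part of this shift in the stage differences below was not tested.

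Levels of different genes were compared per kilobase of annotated exon (CPM per kb). Pcgf1, the core of a variant PRC1 that recognises unmethylated CpG islands, held the highest mean in all 4 groups, at 411 ± 33.7 in knockout MII, 526 ± 42.1 in control MII, 655 ± 208 in knockout GV and 559.7 ± 277 CPM per kb in control GV (SD, n = 2). Its exon sequence is 97.5% identical over part of its length to the pseudogene Gm8930, which itself held 4 to 20 reads a library against 14314 to 27739 for Pcgf1. Phf1, a PRC2 accessory subunit, ranked second in all 4 groups with means of 381, 317, 269.5 and 198 CPM per kb in the same order, and its libraries overlapped those of Pcgf1 in knockout MII and those of Phc2 in control MII. Cuta overlaps 39.3% of the exon bases of Phf1 on the opposite strand. Without the strand setting, the level per kb and the rank of Phf1 are uncertain. Phc2, a polymerising subunit of canonical PRC1, had means between 106 and 268 CPM per kb and came next except in knockout MII, where Bmi1 had a mean of 295 CPM per kb and the libraries of Bmi1 and Phc2 overlapped. At the other end, 10 members at knockout MII, 10 at control MII, 11 at knockout GV and 12 at control GV had means under 1 CPM per kb. Cbx6, Cbx7, Cbx8, Ring1, Pcgf2, Pcgf5, Bcor and E2f6 were under 1 in every group. Members that can stand in for each other in a complex were thus present at very unequal levels. Rnf2, the RING1B ligase, had a mean of 64.8, 62.4, 13.7 and 10.7 CPM per kb in knockout MII, control MII, knockout GV and control GV, and its paralogue Ring1 had means of 0.00459, 0.326, 0.381 and 0.536. The CBX protein with the highest mean in every group was Cbx2, at 74.3, 74.1, 50.7 and 60.1 CPM per kb, while Cbx6, Cbx7 and Cbx8 each stayed at or below 1.08 CPM per kb in every library. Of the histone-binding subunits of PRC2, which are no members, Rbbp7 had means of 748, 667, 525 and 278 CPM per kb in knockout MII, control MII, knockout GV and control GV, and Rbbp4 had means of 0.167, 0.127, 0.13 and 0.0524.

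**Figure D1:**
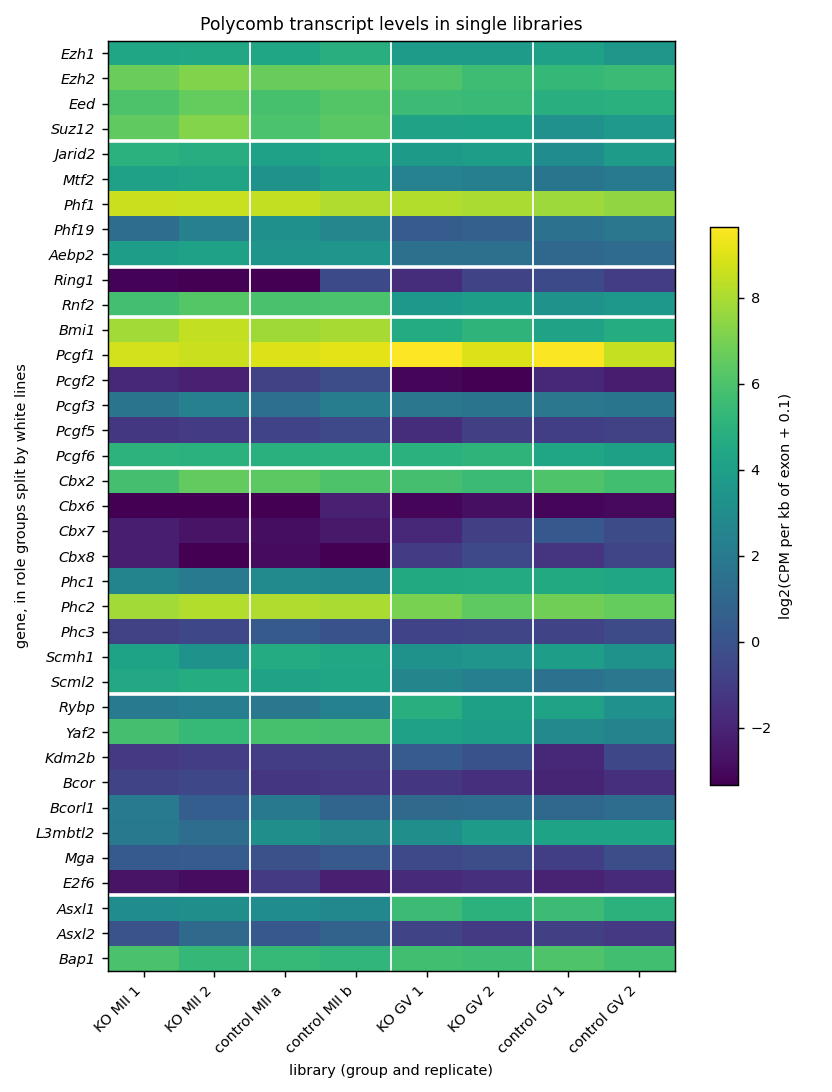
Levels of the 37 Polycomb transcripts in single libraries, as log2(CPM per kb of exon + 0.1), with genes grouped by role from the PRC2 core at the top to PR-DUB at the bottom and the 2 libraries of a group side by side (knockout MII, control MII, knockout GV, control GV). Pcgf1, Phf1 and Phc2 are bright in all 8 libraries, Bmi1 and Suz12 are brighter in the MII columns, and Cbx6, Ring1 and Pcgf2 are dark in most of them.

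The first comparison asked how the Polycomb transcripts differed between MII and GV. CPM are shares of the reads of a library, so every rise or fall between the stages below is relative to the other transcripts. Amounts per oocyte were not measured, and whether a transcript gained or other transcripts were lost was not tested. In knockout oocytes 14 of the 37 members (37.8%) were higher at MII and 5 (13.5%) were lower, where 19.9% of all tested genes were called higher and 29.1% lower (edgeR, adjusted p under 0.05). The median log2 change of the members was 0.50, against -0.33 over all tested genes. In control oocytes 14 members were higher and 5 lower, against 21.2% and 27.9% of all genes, and the medians were 0.73 for the members and -0.20 for all genes. The MII and GV libraries did not overlap for 30 members in knockout and 29 in control oocytes, where 76.9% and 77.9% of all tested genes did not. In all, 12 members were higher in both genotypes and 4 were lower in both. The summed level of all 37 was 8363 and 8992 CPM in knockout MII, 8273 and 8347 CPM in control MII, 4631 and 5201 CPM in knockout GV and 5369.9 and 5011 CPM in control GV, relative to all reads in genes. Suz12, Mtf2, Aebp2, Rnf2, Bmi1, Phc2, Scml2 and Yaf2 were called higher and Phc1 and Asxl1 lower in both genotypes under every alternative run, which makes 10 members. The calls of the other members are qualified below.

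Transcripts that gain a longer poly(A) tail during maturation often carry a U-rich cytoplasmic polyadenylation element near the polyadenylation signal. The last 100 bases of 1 protein-coding transcript of each member were therefore searched, on the transcript's strand, for TTTTAT or TTTTAAT, after the values had been seen. It was the longest with a complete annotated 3′ end and at least 30 bases after an annotated stop codon. Only bases after the stop codon were searched, so a window could be shorter than 100 bases. One of these motifs was present in 7 of the 14 members that were higher at MII in control oocytes, in 0 of the 5 that were lower and in 1 of the other 18, which is Phc3. Among all tested protein-coding genes 31.3% of the higher, 9.16% of the lower and 19.4% of the uncalled genes held one, and 19.4% of all. The 7 and the 0 were the same for the calls in knockout oocytes. The windows below, of 30 bases, are read 5′ to 3′ in the sense of the transcript, in DNA letters on mm10 from GENCODE M21, and are shown because the motif was found among members that were higher at MII and in none that were lower. Capitals mark the motif and, where one lies in the window, the polyadenylation signal AATAAA or ATTAAA.
Eed (chr7:89954691-89954720, minus strand): TTTTATtgtgatggaaacaaactggaagaa
Phf19 (chr2:34893784-34893813, minus strand): gctgcTTTTAATaatatttgttatATTAAA
Aebp2 (chr6:140655433-140655462, plus strand): TTTTATaatgatttctatgtttcttgtaaa
Rnf2 (chr1:151469421-151469450, minus strand): TTTTATctgtctatgggagcacataaacta
Bmi1 (chr2:18686586-18686615, plus strand): tatttcagtcaaaatttgtcTTTTAATAAA
Yaf2 (chr15:93284278-93284307, minus strand): tcaccAATAAAatattTTTTATgacttaca
Asxl2 (chr12:3506811-3506840, plus strand): TTTTATtattaagtaaaagataATTAAAag
Phc3 (chr3:30899426-30899455, minus strand): TTTTATttatgttgtttatattacaataat
In Bmi1 the motif and AATAAA share bases, and in Yaf2 the motif lies after the signal. The transcripts used for Aebp2 and Rnf2 do not end at the annotated end of the gene and have neither signal in their last 50 bases. Which ends oocytes use, and whether the libraries were primed on poly(A) tails, is not known here, so a match describes the annotated sequence.

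In the PRC2 core, 3 of 4 subunits were called higher at MII in knockout oocytes and all 4 in control oocytes. Suz12 (ENSMUSG00000017548, chromosome 11, 79993106 to 80034123), the scaffold that holds the enzyme together, was at 442 and 746 CPM in knockout MII and 316 and 401 CPM in control MII. At GV, Suz12 was at 87.6 and 91.3 CPM in knockout and 46.1 and 62.7 CPM in control oocytes. Every MII library was above every GV library, and Suz12 rose 6.64-fold in knockout oocytes (adjusted p = 0.000125) and 6.59-fold in control oocytes (adjusted p = 0.000142, edgeR). Ezh2 (ENSMUSG00000029687, chromosome 6, 47530139 to 47595341), the main methyltransferase, was at 702 and 962 CPM in knockout MII and 654 and 662 CPM in control MII. At GV, Ezh2 was at 445 and 329 CPM in knockout and 266 and 308 CPM in control oocytes. Its log2 change was 1.10 ± 0.29 in knockout and 1.20 ± 0.29 in control oocytes (adjusted p = 0.00956 and 0.00648, edgeR). The knockout call of Ezh2 was lost without knockout GV library 2 (0.89, adjusted p = 0.064) and without knockout MII library 2 (0.86, adjusted p = 0.0716). Eed, which binds the mark that the complex makes and whose 3′ end is printed above, was at 247 and 362 CPM in knockout MII and 223 and 273 CPM in control MII. At GV, Eed was at 180.0 and 166 CPM in knockout and 112 and 115 CPM in control oocytes. Again all MII libraries were above all GV libraries, with log2 changes of 0.81 ± 0.27 in knockout and 1.13 ± 0.28 in control oocytes (adjusted p = 0.0316 and 0.00703, edgeR). The control call of Eed was lost without control MII library b (0.89, adjusted p = 0.0801), and its knockout call was lost in 5 of 8 fits that left out 1 library and with RLE scaling, DESeq2, no filter or 2 groups, with adjusted p between 0.0294 and 0.231 over all alternatives. Ezh1, the less active paralogue of Ezh2, was at 149.7 and 156 CPM in knockout MII and 154 and 209 CPM in control MII. At GV, Ezh1 was at 106 and 106 CPM in knockout and 128 and 86.5 CPM in control oocytes. Its log2 change was 0.53 ± 0.28 in knockout (adjusted p = 0.143) and 0.76 ± 0.28 in control oocytes (adjusted p = 0.0477, edgeR), and the control call held in 1 of 8 fits that left out 1 library and under none of the 5 other alternatives, with log2 values between 0.43 and 1.06 over all of them.

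The accessory subunits, which steer PRC2 to its targets, were at or above their GV level in both genotypes, with 4 of 5 called higher in knockout and 3 of 5 in control oocytes. Aebp2 (ENSMUSG00000030232, chromosome 6, 140622663 to 140678472), a zinc finger protein of the PRC2.2 form, was at 149.8 and 169.8 CPM in knockout MII, 103 and 109.9 CPM in control MII, 26.6 and 26.6 CPM in knockout GV and 18.8 and 22.2 CPM in control GV. The stages were far apart relative to the spread within groups, and Aebp2 rose 6.01-fold in knockout and 5.2-fold in control oocytes (adjusted p = 4.68e-05 and 8.52e-05, edgeR). Mtf2, one of the 3 Polycomb-like proteins that recruit the PRC2.1 form to CpG islands, was at 98.1 and 108 CPM in knockout MII, 57.2 and 85.6 CPM in control MII, 30.1 and 27.5 CPM in knockout GV and 18.1 and 22.8 CPM in control GV. Its change was 3.57-fold in knockout and 3.49-fold in control oocytes (adjusted p = 0.000737 and 0.000853, edgeR). Jarid2, a partner of Aebp2 in PRC2.2, was at 302 and 262 CPM in knockout MII, 166 and 195 CPM in control MII, 128 and 146 CPM in knockout GV and 75.7 and 134 CPM in control GV. The log2 change of Jarid2 was 1.04 ± 0.31 in knockout (adjusted p = 0.0182) and 0.78 ± 0.31 in control oocytes (adjusted p = 0.0576, edgeR). The knockout call of Jarid2 was lost without knockout GV library 1 (adjusted p = 0.113), without knockout GV library 2 (adjusted p = 0.0571) and without knockout MII library 1 (adjusted p = 0.0975), and the control difference passed without control GV library 2 (1.24, adjusted p = 0.0167). Phf19, another Polycomb-like protein, was at 11.8 and 24.5 CPM in knockout MII and 44.8 and 32.3 CPM in control MII. At GV, Phf19 was at 6.4 and 7.56 CPM in knockout and 13.7 and 17.8 CPM in control oocytes. Its log2 change was 1.38 ± 0.44 in knockout and 1.29 ± 0.43 in control oocytes (adjusted p = 0.0243 and 0.0305, edgeR), and each call was lost when either GV library of its own genotype was left out, with adjusted p up to 0.18 in control and 0.143 in knockout. Leaving out knockout MII library 2 ended the knockout call of Phf19 too (0.76, adjusted p = 0.188), as leaving out control MII library a (0.99, adjusted p = 0.151) or knockout GV library 1 (adjusted p = 0.0559) ended the control call. The control call was also lost with library totals (adjusted p = 0.0905) and the knockout call in a fit of the 2 groups alone (adjusted p = 0.0564). Phf1, the third Polycomb-like protein, had log2 changes of 0.50 and 0.68 that did not pass (adjusted p = 0.154 and 0.0625, edgeR), and 39.3% of its exon bases overlap Cuta on the opposite strand, whose reads could not be separated without strand information.

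Among the catalytic and core PRC1 subunits, Rnf2 and Bmi1 were higher at MII in both genotypes under every alternative run. Rnf2 (ENSMUSG00000026484, chromosome 1, 151458004 to 151500955) was at 226 and 309 CPM in knockout MII and 252 and 263 CPM in control MII. At GV, Rnf2 was at 49.9 and 63.2 CPM in knockout and 39.5 and 48.7 CPM in control oocytes. It rose 4.73-fold in knockout and 5.84-fold in control oocytes (adjusted p = 0.000159 and 9.04e-05, edgeR). Bmi1 (ENSMUSG00000026739, chromosome 2, 18677018 to 18686629), also known as PCGF4 and a partner of the RING ligase in canonical PRC1, was at 932 and 1412 CPM in knockout MII and 876 and 987 CPM in control MII. At GV, Bmi1 was at 101 and 139 CPM in knockout and 69.6 and 105 CPM in control oocytes. All 4 MII libraries were above all 4 GV libraries, and the change was 9.76-fold in knockout and 10.7-fold in control oocytes (adjusted p = 6.04e-05 and 6e-05, edgeR). The pseudogene Gm5946 is 96.7% identical to a stretch of Bmi1 and held 224 to 3551 reads a library against 1500 to 37396 for Bmi1, so reads of the pair may have been exchanged. Ring1 had 1 and 0 reads in knockout MII, 0 and 64 reads in control MII, 13 and 42 reads in knockout GV and 46 and 32 reads in control GV. Ring1 was called lower in knockout MII than in knockout GV (adjusted p = 0.0437, edgeR), a pooled ratio of 0.0127 with an exact 95% interval from 0.000315 to 0.0736 that covers counting error only, and the call was lost in 6 of 8 fits that left out 1 library, with adjusted p up to 0.149. In control oocytes Ring1 was at 0 and 2.11 CPM at MII and at 2.14 and 1.34 CPM at GV, so the stages overlapped, and without control MII library b Ring1 would have been called lower (adjusted p = 0.0204).

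The other PCGF proteins, which define the type of PRC1, were called in at most 1 genotype. Pcgf1 was at 718 and 639 CPM in knockout MII and 818 and 916 CPM in control MII. At GV, Pcgf1 was at 1323 and 838 CPM in knockout and 1246 and 599.8 CPM in control oocytes, with log2 changes of -0.67 ± 0.38 and -0.09 ± 0.37 that did not pass (adjusted p = 0.16 and 0.86, edgeR). Pcgf3 and Pcgf5, partners in the variant PRC1 that acts in X inactivation, lay between 24.2 and 46.5 CPM and between 2.89 and 7.8 CPM over all libraries, and no stage difference passed. Pcgf6, of the variant complex with MGA, E2F6 and L3MBTL2, was at 168 and 155 CPM in knockout MII and 151 and 156 CPM in control MII. At GV, Pcgf6 was at 157 and 171 CPM in knockout and 103 and 82.2 CPM in control oocytes. The control GV libraries were the low ones, and the control log2 change of 0.73 ± 0.25 passed (adjusted p = 0.0332, edgeR), although each of the 8 fits that left out 1 library and each of the 5 other alternatives ended the call, with values between 0.56 and 0.89. Pcgf2, a paralogue of Bmi1, had 22 and 12 reads in knockout MII, 43 and 79 reads in control MII, 1 and 0 reads in knockout GV and 13 and 8 reads in control GV. It was called higher at MII in knockout oocytes (adjusted p = 0.0423, edgeR), with a pooled ratio of 23.7 and an exact 95% interval from 3.98 to 963, and the call held only without control MII library a among the 8 fits that left out 1 library, with adjusted p up to 0.255. It was lost too without the filter on low counts (adjusted p = 0.0715) and with the replicate block (adjusted p = 0.0702).

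In canonical PRC1, the paralogues Phc1 and Phc2, which link complexes into larger assemblies, went in opposite directions. Phc1 (ENSMUSG00000040669, chromosome 6, 122317731 to 122340561) was at 30.3 and 21.5 CPM in knockout MII and 38.4 and 35 CPM in control MII. At GV, Phc1 was at 124 and 127 CPM in knockout and 122 and 102 CPM in control oocytes. It fell 4.84-fold in knockout and 3.06-fold in control oocytes (adjusted p = 0.000152 and 0.00105, edgeR). Phc2 (ENSMUSG00000028796, chromosome 4, 128654702 to 128752881) was at 1635 and 2038 CPM in knockout MII and 1966 and 1825 CPM in control MII. At GV, Phc2 was at 918 and 617 CPM in knockout and 819 and 684 CPM in control oocytes. It rose 2.39-fold in knockout and 2.52-fold in control oocytes (adjusted p = 0.00684 and 0.00512, edgeR). The ratio of Phc2 to Phc1 per kb of exon was 40.5 and 71.1 in knockout MII, 38.4 and 39.1 in control MII, 5.55 and 3.64 in knockout GV and 5.03 and 5.03 in control GV, so no library of one stage overlapped the other. Phc3, the third paralogue, lay between 8.52 and 20.9 CPM and no difference passed. Scml2 (ENSMUSG00000000037, chromosome X, 161117193 to 161258213), a PRC1-associated protein known in mice from the male germ line, was at 137 and 158 CPM in knockout MII and 108 and 122 CPM in control MII. At GV, Scml2 was at 36.5 and 28.9 CPM in knockout and 16.9 and 22 CPM in control oocytes. Scml2 rose 4.52-fold in knockout and 5.91-fold in control oocytes (adjusted p = 0.000188 and 8.9e-05, edgeR). Its relative Scmh1 had log2 changes of 0.48 and 0.87 that did not pass (adjusted p = 0.256 and 0.0531, edgeR), and the control one passed without knockout MII library 1 and without library 2 (adjusted p = 0.0493 and 0.0494), and without the filter on low counts (adjusted p = 0.0473).

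Of the CBX proteins, which read the PRC2 mark, Cbx2 was at 239 and 393 CPM in knockout MII and 354 and 277 CPM in control MII. At GV, Cbx2 was at 239 and 193 CPM in knockout and 286 and 225 CPM in control oocytes, and neither stage difference passed. Cbx7 was at 0.715 and 0.377 CPM in knockout MII and 0.269 and 0.562 CPM in control MII. At GV, Cbx7 was at 1.19 and 2.97 CPM in knockout and 7.01 and 4.57 CPM in control oocytes. All MII libraries were below all GV libraries, and Cbx7 fell by 3.78 ± 0.96 on the log2 scale in control oocytes (adjusted p = 0.00867) while the change of -1.92 ± 0.90 in knockout oocytes did not pass (adjusted p = 0.1, edgeR). The knockout change of Cbx7 passed with DESeq2 (-1.99, adjusted p = 0.0483). Without control GV library 1 the control call of Cbx7 was lost (-3.45, adjusted p = 0.074). Cbx8 had 14 and 0 reads in knockout MII, 3 and 0 reads in control MII, 26 and 55 reads in knockout GV and 24 and 49 reads in control GV. Its MII libraries were the low ones in both genotypes without a call (adjusted p = 0.139 in knockout and 0.0551 in control oocytes, edgeR), and it would have been called lower in control oocytes without control MII library a, knockout MII library 1 or knockout MII library 2 (adjusted p = 0.0401, 0.0178 and 0.0168), and in knockout oocytes without knockout MII library 1 (adjusted p = 0.0241). The control difference of Cbx8 also passed with DESeq2, without the filter on low counts and in a fit of the 2 groups alone (adjusted p = 0.00874, 0.0145 and 0.0351). Cbx6 had at most 40 reads in any library and 0 in both knockout MII libraries, and its stage difference in knockout oocytes passed without control MII library a (adjusted p = 0.0413) and not with it (adjusted p = 0.081, edgeR).

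In variant PRC1 the paralogues Yaf2 and Rybp, which occupy the same site of the complex and stimulate its ligase, crossed over between the stages. Yaf2 (ENSMUSG00000022634, chromosome 15, 93284278 to 93336935) was at 106 and 77.5 CPM in knockout MII and 109 and 105 CPM in control MII. At GV, Yaf2 was at 31.9 and 29.1 CPM in knockout and 12.5 and 10.3 CPM in control oocytes. It rose 3-fold in knockout and 9.42-fold in control oocytes (adjusted p = 0.00117 and 3.63e-05, edgeR). Rybp (ENSMUSG00000072872, chromosome 6, 100228565 to 100287485) was at 19.1 and 21.6 CPM in knockout MII and 16.9 and 23.8 CPM in control MII. At GV, Rybp was at 139 and 77.7 CPM in knockout and 82.5 and 44.6 CPM in control oocytes. Rybp fell 5.33-fold in knockout and 3.12-fold in control oocytes (adjusted p = 0.000824 and 0.00666, edgeR), and its control call was lost without control GV library 1 (-1.14, adjusted p = 0.0712). Per kb of exon the ratio of Yaf2 to Rybp was 14 and 9.08 in knockout MII, 16.3 and 11.2 in control MII, 0.581 and 0.948 in knockout GV and 0.383 and 0.584 in control GV. Rybp was thus the more abundant of the pair in every GV library and Yaf2 in every MII library. The pseudogene Rybp-ps, 99.3% identical to a stretch of Rybp, held 2 to 24 reads a library against 439 to 2453 for Rybp.

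Of the partners of variant PRC1, L3mbtl2, which joins the PCGF6 complex and binds chromatin through MBT repeats, was at 21.7 and 14.3 CPM in knockout MII and 51.5 and 34.6 CPM in control MII. At GV, L3mbtl2 was at 51.7 and 85.8 CPM in knockout and 110.3 and 109 CPM in control oocytes. It fell 3.83-fold in knockout and 2.54-fold in control oocytes (adjusted p = 0.00149 and 0.0101, edgeR), and the control call was lost without control MII library b (-1.18, adjusted p = 0.0685). Chadl, on the opposite strand, covers 17.2% of the exon bases of L3mbtl2. The other partners were low. Kdm2b, which recruits the PCGF1 complex to unmethylated CpG, lay between 1.95 and 13.9 CPM, Bcor and Bcorl1, scaffolds of that complex, between 1.3 and 5.28 CPM and between 11.6 and 32.6 CPM, and Mga and E2f6, DNA-binding partners of PCGF6, between 6.59 and 19.5 CPM and between 0.189 and 2.04 CPM. None of these 5 passed the test between the stages in either genotype in edgeR over all libraries. Kdm2b passed as lower in knockout MII with DESeq2 (-1.60, adjusted p = 0.0276) and in a fit of the 2 groups alone (-1.53, adjusted p = 0.0402).

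The PR-DUB genes Asxl1 and Asxl2 encode alternative partners of the enzyme Bap1, and they too moved in opposite directions. Asxl1 (ENSMUSG00000042548, chromosome 2, 153345829 to 153404007) was at 58.4 and 63.6 CPM in knockout MII and 58.5 and 49.3 CPM in control MII. At GV, Asxl1 was at 352 and 237 CPM in knockout and 359 and 242 CPM in control oocytes. It fell 4.83-fold in knockout and 5.58-fold in control oocytes (adjusted p = 0.00025 and 0.00017, edgeR). Asxl2 was at 14.3 and 34.1 CPM in knockout MII and 17.7 and 25.8 CPM in control MII. At GV, Asxl2 was at 8.55 and 5.82 CPM in knockout and 7.15 and 5.57 CPM in control oocytes. Its log2 change was 1.75 ± 0.50 in knockout and 1.77 ± 0.50 in control oocytes (adjusted p = 0.0157 and 0.0151, edgeR). Both calls of Asxl2 depended on single libraries, since the knockout call was lost without knockout GV library 1, knockout GV library 2 or knockout MII library 2 (adjusted p = 0.0544, 0.122 and 0.145) and the control call without control GV library 1, control GV library 2 or control MII library b (adjusted p = 0.0633, 0.109 and 0.0811). Asxl1 nevertheless stayed the more abundant of the pair, with a ratio of Asxl2 to Asxl1 per kb of 0.114 and 0.25 in knockout MII, 0.141 and 0.244 in control MII, 0.0113 and 0.0115 in knockout GV and 0.0093 and 0.0107 in control GV. Bap1 lay between 173 and 314 CPM and no stage difference passed.

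**Figure D2:**
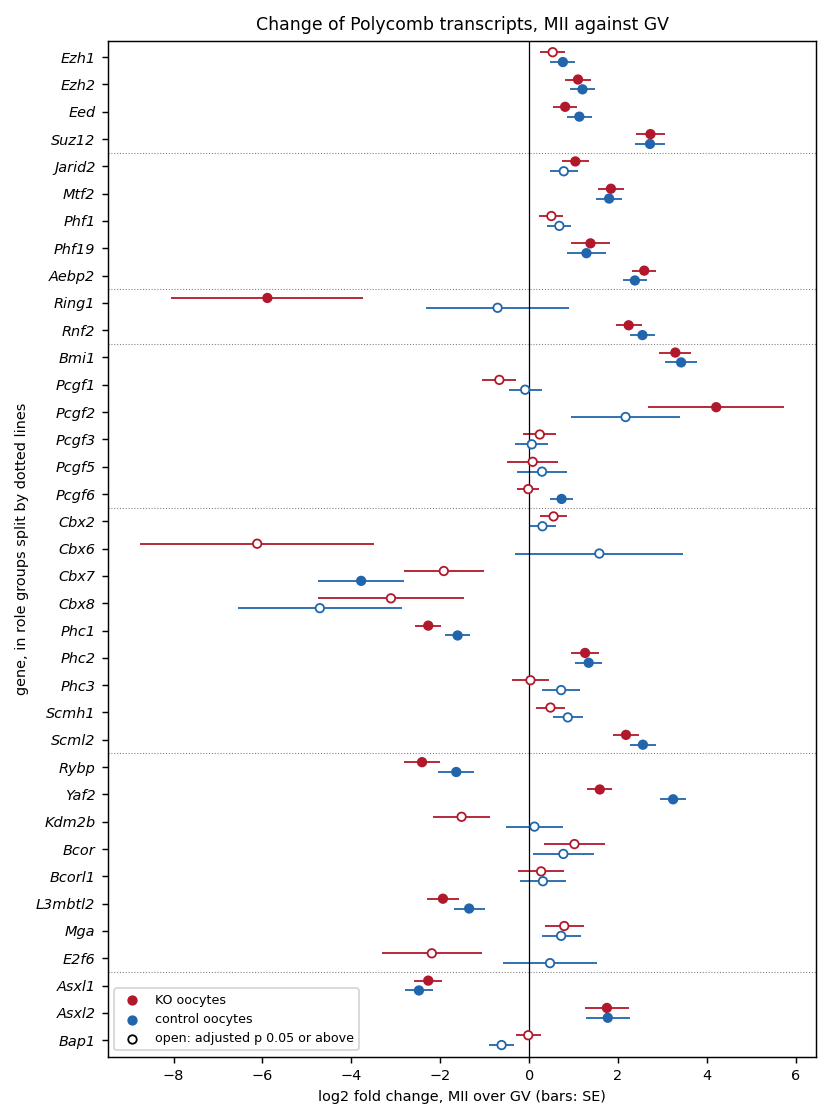
Log2 fold change of each Polycomb transcript, MII over GV, in knockout (red) and control (blue) oocytes, with bars for the standard error and filled points for adjusted p under 0.05. Bmi1, Suz12, Rnf2, Aebp2, Scml2 and Yaf2 lie to the right of 0 and Phc1, Rybp, L3mbtl2 and Asxl1 to the left in both genotypes, and the wide bars belong to genes with few reads such as Ring1, Pcgf2, Cbx6 and Cbx8.

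**Figure D3:**
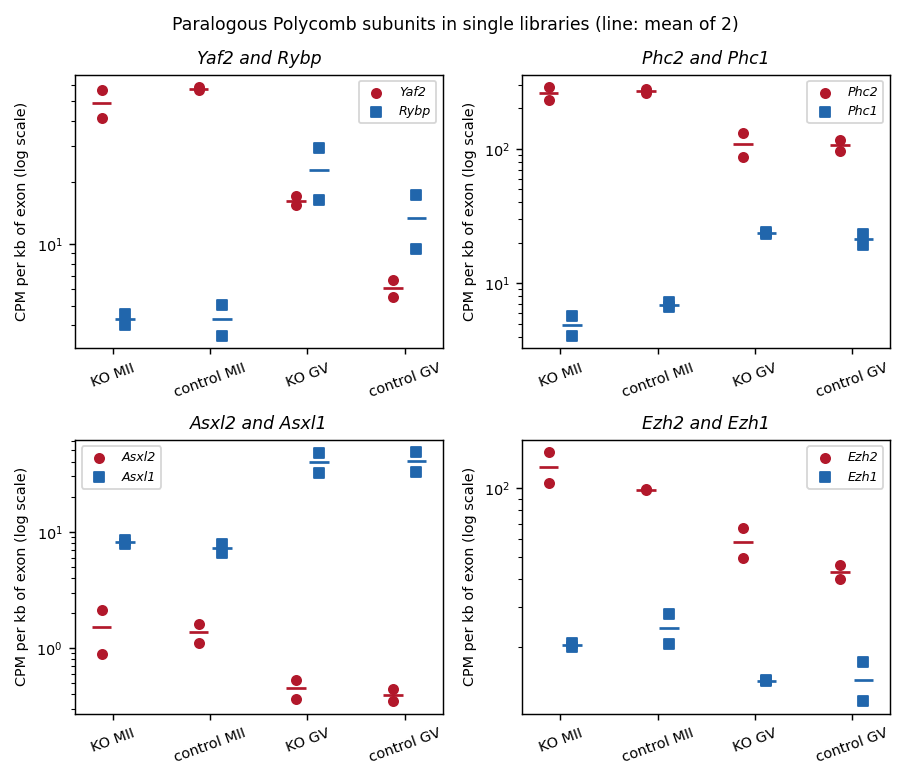
Levels of 4 pairs of paralogues in single libraries, in CPM per kb of exon on a log axis, with a line at the mean of the 2 libraries of a group. Yaf2 lies above Rybp in the MII groups and below it in the GV groups, while the order within the other pairs is the same in all groups.

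Genes of the same system that are no members were described from lists of names. The shares over all tested genes were 19.9% higher and 29.1% lower in knockout and 21.2% and 27.9% in control oocytes. Of 4 further PRC2 genes, 1 was called higher in knockout and 2 in control oocytes at MII. Of 16 further PRC1 genes, 5 were called higher and 3 lower in each genotype, and of 10 further PR-DUB and MBT genes, 6 were higher and 1 lower in knockout and 7 higher and 2 lower in control oocytes. Of 7 enzymes that remove methyl from H3 lysine 27 or ubiquitin from H2A, 3 were called higher and 1 lower in each genotype. Kdm6a, a demethylase of the PRC2 mark, was at 124 and 123 CPM in knockout MII and 86 and 132 CPM in control MII. At GV, Kdm6a was at 29.5 and 31.7 CPM in knockout and 12.5 and 16.8 CPM in control oocytes. It rose 4.04-fold in knockout and 7.46-fold in control oocytes (adjusted p = 0.000465 and 7.85e-05, edgeR). Kdm6b, its paralogue, rose 1.92-fold in knockout and 2.82-fold in control oocytes (adjusted p = 0.014 and 0.0012, edgeR), and the knockout call was lost without knockout GV library 2 (adjusted p = 0.0904) or knockout MII library 1 (adjusted p = 0.107).

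The second comparison asked whether loss of BAF250a, a remodeller whose complexes evict Polycomb from chromatin in other cell types, went with other levels of the Polycomb transcripts themselves. No member passed at either stage. At MII 0 of 37 were called by edgeR, where 5.14% of all tested genes were (1.7% higher and 3.44% lower). Of the 37 members, 6 had an unadjusted p under 0.05, a smaller share than the 22.2% of all genes. At GV 0 of 37 were called, against 0.989% of all genes (0.597% higher and 0.392% lower). There 8 of the 37 members had an unadjusted p under 0.05, a larger share than the 10.8% of all genes. The median log2 difference, knockout over control, was 0.06 for the members and -0.01 for all genes at MII, and 0.23 and 0.00 at GV, where scaling by library totals alone gave -0.06 and -0.27. A p that misses the threshold does not show equal levels. The 95% interval of the difference lay within 1 log2 unit of 0 for 13 members at MII and 9 at GV, and within 2 log2 units for 28 and 27.

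The difference nearest to a call was that of Yaf2 at GV. Yaf2 was at 31.9 and 29.1 CPM in knockout GV, against 12.5 and 10.3 CPM in control GV, a log2 difference of 1.42 ± 0.29 (adjusted p = 0.051, edgeR). The adjusted p of Yaf2 lay between 0.00526 and 0.348 over the alternatives, and it passed with DESeq2, without the filter on low counts, in a fit of the GV groups alone and without knockout MII library 2 (adjusted p = 0.0499). At MII Yaf2 was at 106 and 77.5 CPM in knockout and at 109 and 105 CPM in control oocytes, a log2 difference of -0.23 with a 95% interval from -0.85 to 0.39. The difference between the 2 stages was -1.65 ± 0.40 and did not pass (adjusted p = 0.162, edgeR), whereas DESeq2 gave -1.59 (adjusted p = 0.047). None of the 37 members had a stage-dependent knockout difference in edgeR, where 0.0835% of all genes had one, and 2 members and 11.5% of all genes had an unadjusted p under 0.05.

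L3mbtl2 was lower in knockout than in control libraries at MII, at 21.7 and 14.3 CPM against 51.5 and 34.6 CPM in control MII, and it was at 51.7 and 85.8 CPM in knockout GV against 110.3 and 109 CPM in control GV. The groups did not overlap at either stage. The log2 difference was -1.26 ± 0.35 at MII (adjusted p = 0.0726, edgeR) and -0.67 at GV (adjusted p = 0.562), and the MII difference passed with DESeq2 (adjusted p = 0.0218) and without the filter (adjusted p = 0.0143). Phf19 was lower in knockout than in control libraries at both stages, at 11.8 and 24.5 against 44.8 and 32.3 CPM at MII and at 6.4 and 7.56 against 13.7 and 17.8 CPM at GV, with log2 differences of -1.09 ± 0.43 and -1.17 ± 0.43 (adjusted p = 0.171 and 0.324, edgeR). Suz12 leaned the other way, with log2 differences of 0.73 ± 0.31 at MII and 0.72 ± 0.32 at GV (adjusted p = 0.208 and 0.448, edgeR) and no overlap between knockout and control at either stage. Pcgf6 at GV stood at 157 and 171 CPM in knockout against 103 and 82.2 CPM in control oocytes (0.83 ± 0.25, adjusted p = 0.206, edgeR). For Ring1 at MII, with 1 and 0 reads in knockout and 0 and 64 in control libraries, the pooled ratio was 0.0146 with an exact 95% interval from 0.000365 to 0.0845 for counting error alone, and the control libraries themselves spanned 0 to 64 reads. That difference did not pass in edgeR (adjusted p = 0.156) and passed with DESeq2 (adjusted p = 0.0409), without the filter (adjusted p = 0.0211) and without control MII library a (adjusted p = 0.0347). Cbx6 had 0 reads in both knockout MII libraries and 0 and 40 in control MII, at least 6.52-fold lower against a floor of 3 reads per library, a bound that rests on 1 control library. With Cbx6 at that bound the median of the members at MII remained 0.06.

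Knockout and control libraries did not overlap for 18 members at MII (48.6%) and for 17 at GV (45.9%), and the share was 46.4% of all tested genes at both stages. The same side held at both stages for 10 of the 37 members, a larger share than the 17.5% of all genes. They are Ezh2, Suz12, Mtf2, Phf1, Aebp2, Scml2 and Bcor on the higher side and Phf19, Pcgf2 and L3mbtl2 on the lower. Phc1 was on opposite sides at the 2 stages. The shares at single stages were near the background, and none of these differences passed in edgeR. Phc2 and Scmh1 lie on chromosome 4 at 4.93 and 13.1 Mb from Arid1a, where linked sequence of the targeted allele may differ from control, and 7.84% of the tested genes of that chromosome were called at MII and 2.19% at GV. Neither gene was called, with log2 differences of -0.05 and -0.73 at MII and 0.03 and -0.34 at GV.

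**Figure D4:**
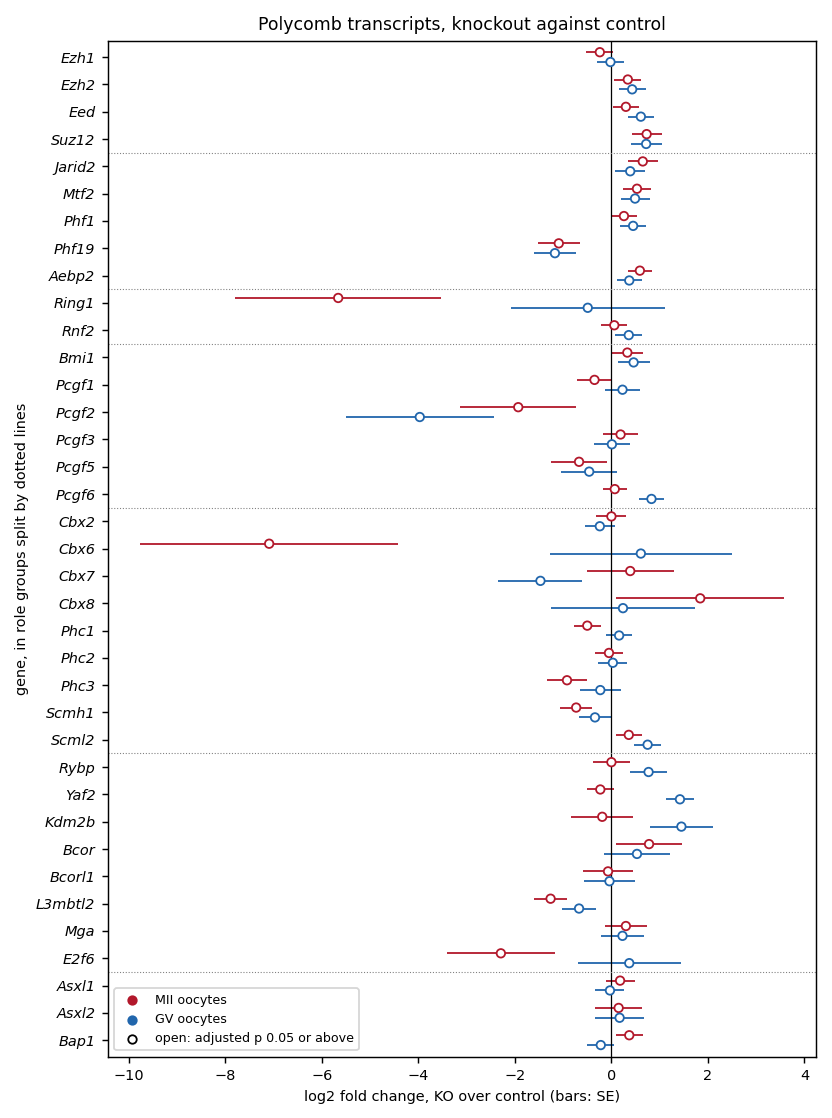
Log2 fold change of each Polycomb transcript, knockout over control, at MII (red) and GV (blue), with bars for the standard error and open points because every adjusted p was 0.05 or above. Most points lie within 1 unit of 0, and Yaf2 at GV (1.42) is the point with the smallest adjusted p (0.051).

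Markers of granulosa and cumulus cells, which surround the oocyte, summed to 122 and 103 CPM in knockout MII, 165 and 182 CPM in control MII, 69.5 and 88.3 CPM in knockout GV and 172 and 135 CPM in control GV. Of the 26 markers, 13 and 17 were at 0 reads in knockout MII, 12 and 8 in control MII, 7 and 7 in knockout GV and 6 and 7 in control GV. Summed blood and immune markers were 4.81 and 5.03 CPM in knockout MII, 17.6 and 89.5 CPM in control MII, 38.6 and 53.9 CPM in knockout GV and 76.3 and 64.3 CPM in control GV, over 25 genes. Stromal, theca and endothelial markers summed to 35.8 and 32.1 CPM in knockout MII, 65.5 and 39.2 CPM in control MII, 15.3 and 25.2 CPM in knockout GV and 24 and 21.2 CPM in control GV. The knockout libraries were below the control libraries at both stages in the granulosa and in the blood and immune sums, and for the stromal list at MII. Control MII library b, which holds the 64 reads of Ring1, also held 1095 reads of Cd74 and 494 of H2-Ab1, genes of antigen presentation that had at most 11 reads and 1 read in the other libraries. Ring1 itself had 13 and 42 reads in knockout GV and 46 and 32 reads in control GV. The part of such cells in the low Polycomb transcripts, such as Ring1, Cbx7 and Pcgf2, was not tested.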

How the data were processed

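The authors deposited read counts per Ensembl gene, in 1 table with a column for each of the 8 libraries. Per the submitters' processing notes, Bowtie2, HTSeq and edgeR were used with mm10; versions, annotation, strand setting and kit: not given in the sources used here. Entries of the counter that name no gene (22% to 35.1% of a library) were left out. Per the file headers, both control MII columns carry the same name, so they are libraries a and b with no replicate number, and 0 value columns were unused. Replicates of a group differed by a chi-square of 39.1 to 84.8 per degree of freedom, so none was a duplicate. Nothing says that they came from separate mice, so p-values measure the spread between libraries, which may be technical.

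Symbols came from GENCODE M21, which holds 54809 of the 54838 IDs. The counts went into edgeR 4.0.16 under R 4.3.3 (filterByExpr, TMM scaling, 1 term per group, quasi-likelihood F-test, two-sided) over all 8 libraries, with 4 residual and 6.3 prior degrees of freedom. P-values were adjusted by Benjamini-Hochberg over the 15572 genes tested within each of 5 contrasts, and a gene was called at adjusted p under 0.05. CPM were TMM-scaled; summed CPM were relative to all reads in genes. A floor of 3 reads equals 0.0894 to 0.17 CPM, and intervals from reads cover counting error only. Alternatives were DESeq2 1.42.0, other scalings, no filter, fits of 2 groups, a replicate block and leaving out each library. Pseudogene copies were found with minimap2 2.31-r1302 (at least 90% identity over 200 bases). The steps were tested on simulated data, with changes placed only in genes above a minimum mean level. Its rates therefore do not cover low members such as Ring1 and Cbx6. Of the calls in the simulated data, 7.44% at MII and 3.42% at GV fell on genes that had not been changed. There, 2.99% of genes changed by 1 log2 unit were recovered in knockout against control at each stage. For changes of 2 log2 units it was 68.7% at MII and 67.2% at GV. A missing call in knockout against control therefore does not exclude a difference of 1 log2 unit.

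The members, the other lists and the tests were chosen with earlier results of these data known. All 37 members were named, with Arid1a, Rbbp4, Rbbp7, Kdm6a, Kdm6b and, from the other lists, genes called in knockout against control (at most the 8 of smallest p per comparison). Tox3, Gab1, Smoc1, Jade1, Myo1a and the markers Ptprc, Lyz2, Adgre1, Cd74 and H2-Ab1 were named outside that rule. All members passed the filter, Ring1, Pcgf2, Cbx6 and Cbx8 with at most 79 reads in any library.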

Additional observations from a re-analysis of the deposited data

How the results depend on the processing

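10 of the 37 members were called in both genotypes under every alternative; no difference of a member that was called changed sign. In knockout against control at MII, 2 members were called lower with DESeq2 and 2 without the filter on low counts (Ring1 and L3mbtl2), and 0 to 1 when a library was left out. At GV, 1 was called higher with DESeq2, 1 without the filter and 1 in a fit of the 2 groups alone (Yaf2 each time), and 0 to 1 when a library was left out. For the difference between the stages, 1 was called lower with DESeq2 (Yaf2). Leaving out each library in turn gave 8 to 13 members higher and 4 to 6 lower at MII in knockout oocytes, and 10 to 13 higher and 3 to 6 lower in control oocytes, where the 3 came without control GV library 1 and the 8 without knockout GV library 2. Counts over all genes moved more: in knockout against control at MII 265 were higher and 535 lower, against 693 and 1230 with DESeq2, 599 and 1230 without the filter, and 166 and 226 with 2 groups. At GV 93 were higher and 61 lower, against 290 and 229 with DESeq2, 336 and 191 without the filter, 345 and 357 with 2 groups, 59 higher with library totals, and down to 15 and 14 without control GV library 1. For the difference between the stages 1 was higher and 12 lower, against 264 lower with DESeq2, 125 and 373 without the filter, 0 and 2 with library totals and 0 and 1 with RLE scaling. The causes were not tested. Library totals alone shifted the median of all genes to -0.27 in the GV knockout contrast, -0.36 in control maturation and -0.28 in knockout maturation, and RLE scaling to -0.33 and -0.40 in the last pair, while the members' maturation medians lay at 0.42 to 0.59. Same-numbered libraries of knockout GV and control GV shared part of their deviations (correlation 0.24), which the main fit left out. Between knockout MII and the GV groups the correlation was -0.00785 (knockout GV) and -0.00119 (control GV). With the replicate block, over the 6 numbered libraries, 0 members were called at GV and 13 higher and 5 lower in knockout maturation. Contrasts with control MII could not be fitted with that block. With 2 libraries a group, the median SE of a knockout difference was 0.33, and genes under 3 reads have no measurable fold.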

Other observations

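Genes that PRC2 silences were looked at as well, from lists chosen with earlier results known. Of 22 genes whose maternal allele is silenced through H3 lysine 27 methylation in mouse embryos, or that are candidates for it, 14 passed the filter. Summed over all 22, they reached 47 and 28.9 CPM in knockout MII, 96.4 and 91.5 CPM in control MII, 4.8 and 10.3 CPM in knockout GV and 35.6 and 39.7 CPM in control GV, so knockout libraries were below control libraries at both stages. Of the 14 genes, 13 had a negative log2 difference, knockout over control, at GV and 1 a positive one, and at MII 10 were negative and 2 positive. The median was -2.83 at GV and -1.51 at MII, against 0.00 and -0.01 for all tested genes. Smoc1, Jade1, Runx1 and Myo1a had at most 4 reads in any knockout library and passed the filter through control libraries. A filter passed that way favours negative differences, so these signs and medians are no test of the list. Tox3 made up much of the sum at MII, with 777 and 515 reads in knockout MII and 1525 and 1456 in control MII. At GV, Tox3 had 23 and 2 reads in knockout and 327 and 127 in control oocytes. Its log2 difference, knockout over control, was -1.33 ± 0.72 at MII (adjusted p = 0.317) and -3.96 ± 0.87 at GV (adjusted p = 0.0757, edgeR's quasi-likelihood test). Runx1, a transcription factor of blood and other lineages, had 1 and 0 reads in knockout MII, 90 and 131 in control MII, 1 and 1 in knockout GV and 4 and 5 in control GV, and was the 1 gene of the list called lower at MII (adjusted p = 0.0182, edgeR), against 3.44% of all genes. None was called at GV, where 0.392% of all genes were called lower. Gab1, an established member of this class, lay between 1.08 and 6.72 CPM, with 201 and 178 reads in knockout MII and 78 and 81 in control MII (adjusted p = 0.358, edgeR).

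Of 39 HOX genes, 9 passed the filter and 0 were called in knockout against control at either stage; their sums were 49.3 and 44.9 CPM in knockout MII, 95.5 and 89.1 CPM in control MII, 11.5 and 15.6 CPM in knockout GV and 16.9 and 31.7 CPM in control GV. Of 41 developmental regulators that Polycomb holds silent in embryonic stem cells, 16 passed and 0 were called, with sums of 163 and 162 CPM in knockout MII, 192 and 228 CPM in control MII, 50.6 and 108 CPM in knockout GV and 137 and 164 CPM in control GV. The granulosa and cumulus sums were lower in knockout libraries too. Of 20 tested markers of that list, 2 were called lower at MII in edgeR (10%), against 3.44% of all genes. They were Gja1 (1 and 0 reads in knockout MII, 90 and 93 in control MII, adjusted p = 0.013) and Hsd17b1 (2 and 0 against 79 and 71 reads, adjusted p = 0.0305). Among the 20, 5 had a positive and 14 a negative difference at MII, from -9.30 to 6.28 on the log2 scale. Of 9 tested blood and immune markers, 2 were called lower at MII (22.2%), with 1 positive and 7 negative differences. These 2, Cd52 and Ccl3, had 0 reads in both knockout MII libraries, against 108 and 304 reads and 200 and 167 reads in control MII. Of 20 oocyte markers, 1 was called lower at MII (5%), with 10 positive and 8 negative differences and a median of 0.07. It was the transcription factor Figla, at 3 and 1 reads in knockout MII, against 26 and 8 in control MII (adjusted p = 0.0482, edgeR). The part of other cells in the sums above was not tested.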
